A study of Mus musculus with 4 samples.

Results

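Polycomb repressive complex 2 (PRC2) is the enzyme complex that methylates lysine 27 of histone H3, and the transcripts of 10 of its core and accessory subunits are described here. The genes were taken by symbol from the per-gene read counts: Ezh1, Ezh2, Eed, Suz12, Jarid2, Aebp2, Mtf2, Phf1, Phf19 and Epop. All 10 were found among the 41543 gene symbols counted, and all 10 had enough reads to be tested, as did 16112 genes in all. Messenger RNA was sequenced from the mouse embryonic stem (ES) cell line E14TG2a. The libraries labelled KAT6A KO came from cells whose gene for the histone acetyltransferase KAT6A was targeted with CRISPR/Cas9, and the libraries labelled Control from the same line, with 2 libraries in each group. Both groups were grown on gelatin with fetal calf serum and the cytokine LIF. Whether replicates are separate cultures or clones is not stated, so the spread behind each p-value, that between these libraries, may be technical.

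PRC2 has a catalytic core of EZH2 or its relative EZH1, which carry the methyltransferase domain, with SUZ12, the scaffold of the complex, and EED, which binds the methylated histone tail and stimulates the enzyme. Accessory proteins join this core in alternative sets. One form, PRC2.1, holds a Polycomb-like protein (PHF1, MTF2 or PHF19), and EPOP can join it. The other, PRC2.2, holds JARID2 and AEBP2. In ES cells PRC2 is known for occupying unmethylated CpG islands at silent developmental genes, and the Polycomb-like proteins and JARID2 take part in bringing it there. The series title concerns the recruitment of KAT6A to such CpG islands.

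Library totals lay between 27494041 and 37354623 counts. Kat6a RNA stood at 242 and 86.4 CPM (counts scaled to library size) in libraries 1 and 2 labelled KO, against 145 and 143 CPM in the Control libraries. The Kat6a values of the libraries labelled KO therefore lie on both sides of the Control values, and Kat6a did not pass the test (log2 fold change 0.19 ± 0.41 SE, edgeR adjusted p = 0.772). The Kat6a log2 fold change was -0.74 without KO replicate 1 and 0.75 without KO replicate 2. The labels do not name the edited position, so these counts cannot check them, and each direction below rests on the labels. The ES cell markers Pou5f1, Sox2 and Nanog were present at 414 to 1010 CPM in the libraries labelled KO and at 447 to 622 CPM in the Control libraries. Mitochondrial genes held 1.80% and 1.30% of counts in the libraries labelled KO and 2.24% and 2.25% in the Control libraries. In bulk RNA, fewer cells of a type and less RNA per cell cannot be told apart.

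The promoters of the subunits that passed the test are shown because the study is about proteins that read CpG-rich DNA. Each is a window of 300 bases, from 250 before to 50 after a RefSeq transcription start, read on the gene's strand in GRCm38.p6, with every CG dinucleotide in capitals. CG reads the same on both strands. Sequences were found for 9 of the 10 subunits. At the first listed start these 9 windows held a median of 24 CG, with a range of 4 to 41, beside a median of 7 over the 27025 genes in the same table. The Suz12 window held 41 CG, and 3.35% of all genes had as many or more; the Phf19 window held 38 (4.78%), and the Jarid2 window 24 (20%). Aebp2 has several listed starts: its first window held 4 CG, and 68.1% of genes had as many, while its second held 21 (25.01%). The windows of Ezh2, Mtf2, Phf1, Ezh1 and Eed held 31, 30, 24, 23 and 17 CG. Which start was used was not measured.
Suz12 promoter, chr11:79992856-79993155, plus strand: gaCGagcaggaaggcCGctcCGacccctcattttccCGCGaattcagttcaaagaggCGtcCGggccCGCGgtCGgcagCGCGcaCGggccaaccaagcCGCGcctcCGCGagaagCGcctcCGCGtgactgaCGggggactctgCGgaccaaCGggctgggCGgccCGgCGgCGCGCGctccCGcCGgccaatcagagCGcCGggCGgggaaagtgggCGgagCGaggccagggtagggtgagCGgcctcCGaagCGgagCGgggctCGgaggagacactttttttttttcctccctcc
Phf19 promoter, chr2:34913927-34914226, minus strand: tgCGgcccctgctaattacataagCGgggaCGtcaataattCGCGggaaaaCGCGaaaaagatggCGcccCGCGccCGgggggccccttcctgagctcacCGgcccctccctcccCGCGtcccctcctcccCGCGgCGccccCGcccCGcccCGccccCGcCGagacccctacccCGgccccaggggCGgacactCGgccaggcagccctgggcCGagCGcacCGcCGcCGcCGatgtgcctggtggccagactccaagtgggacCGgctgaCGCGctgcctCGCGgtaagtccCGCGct
Jarid2 promoter, first listed start, chr13:44730524-44730823, plus strand: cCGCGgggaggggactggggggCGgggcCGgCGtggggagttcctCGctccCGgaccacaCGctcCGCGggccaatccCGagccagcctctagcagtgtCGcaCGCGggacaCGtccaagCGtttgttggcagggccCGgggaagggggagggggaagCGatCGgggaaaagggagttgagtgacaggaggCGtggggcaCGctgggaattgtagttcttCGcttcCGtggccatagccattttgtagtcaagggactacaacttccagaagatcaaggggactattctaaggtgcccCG
Aebp2 promoter, first listed start, chr6:140622413-140622712, plus strand: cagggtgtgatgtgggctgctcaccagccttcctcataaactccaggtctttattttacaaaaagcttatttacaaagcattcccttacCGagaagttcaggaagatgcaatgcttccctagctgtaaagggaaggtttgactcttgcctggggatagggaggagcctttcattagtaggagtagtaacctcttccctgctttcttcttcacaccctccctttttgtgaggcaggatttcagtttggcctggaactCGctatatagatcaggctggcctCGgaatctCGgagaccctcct
Aebp2 promoter, second listed start, chr6:140624659-140624958, plus strand: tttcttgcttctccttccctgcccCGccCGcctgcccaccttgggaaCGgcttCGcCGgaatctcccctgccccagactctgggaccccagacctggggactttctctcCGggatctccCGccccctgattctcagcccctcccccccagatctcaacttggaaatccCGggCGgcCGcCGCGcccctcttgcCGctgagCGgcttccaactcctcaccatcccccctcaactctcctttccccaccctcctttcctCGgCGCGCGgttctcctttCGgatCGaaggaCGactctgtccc

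In the libraries labelled KO, Suz12 was lower than in the Controls by more than one log2 unit, and Phf19, one of the Polycomb-like genes, was lower by 0.85. The genes of both PRC2.2 subunits, Aebp2 and Jarid2, were higher, by 0.62 and 0.41. Ezh2, Eed, Ezh1, Mtf2, Phf1 and Epop did not pass the test. Of the 10 subunit genes, 2 rose and 2 fell (Benjamini-Hochberg adjusted p under 0.05 over all 16112 genes in edgeR's quasi-likelihood test). Over all genes tested, 5.76% rose and 8.57% fell. The median log2 fold change of the 10 was -0.08, beside 0.01 over all genes tested. The CPM of all 10 did not overlap between the groups, which was also so for 64.3% of all genes tested. The counts of 2 rises and 2 falls changed when 1 library was left out. Without Control replicate 1, 0 subunits rose and 3 fell (1.55% and 4.09% of all genes), and without Control replicate 2, 0 rose and 2 fell (1.69% and 3.94% of all genes). The spread then came from the KO pair alone, whose log2 CPM differed with an SD of 0.459, against 0.258 for the Control pair. The log2 fold changes were 0.37 and 0.45 for Jarid2, and 0.61 and 0.61 for Aebp2, near those of the full fit. Why the 2 rises were lost was not tested. Without KO replicate 1 (23.9% of all genes higher and 26.2% lower) and without KO replicate 2 (20.9% and 22.9%), 3 subunits rose and 5 fell each time, with the spread taken from the Control pair alone.

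**Figure D1:**
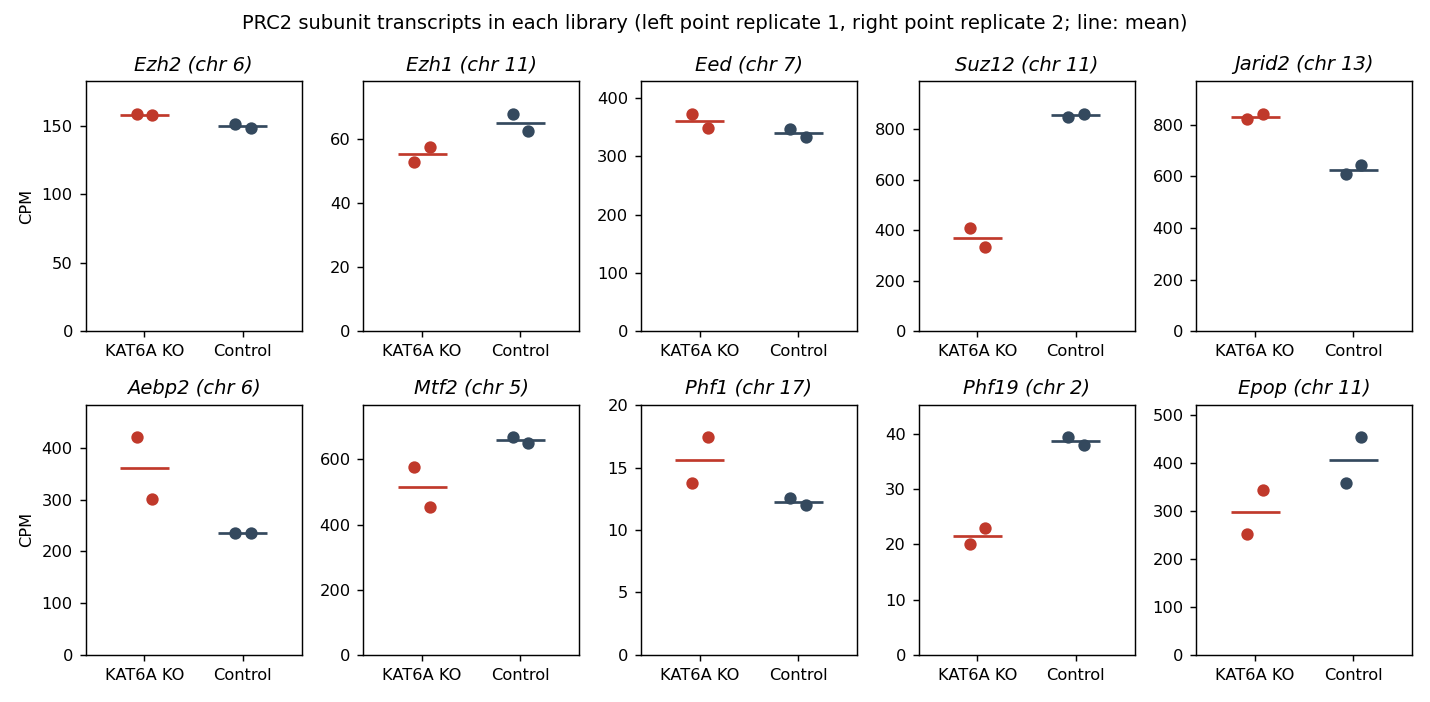
CPM (vertical axis) of the 10 PRC2 subunit genes in the 2 libraries labelled KAT6A KO (red) and the 2 Control libraries (dark blue), with the group mean as a line. Suz12 lies at 408 and 333 CPM in the libraries labelled KO, below 850.4 and 863 CPM in the Control libraries, while Ezh2 and Eed differ little between the groups.

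Among the core genes, Suz12 fell and the others did not pass the test. Suz12, the scaffold gene, lies on chromosome 11 (79993106 to 80034123, plus strand, GRCm38). It had 408 CPM in KO replicate 1 and 333 CPM in KO replicate 2, against 850.4 and 863 CPM in the Control libraries. Both KO values were below both Control values, at 0.476 and 0.389 times the Control mean. The log2 fold change was -1.21 ± 0.11 (SE; 95% interval -1.48 to -0.94; edgeR adjusted p = 0.0064), which is 0.433 times the Control level. The call held under all 18 alternative settings.

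Eed, whose product reads methylated lysine 27, lies on chromosome 7 (89954654 to 89980983). It had 373 and 348 CPM in the libraries labelled KO and 347 and 333 CPM in the Control libraries. The lower KO value lay just above the higher Control value, and the log2 fold change was 0.09 (95% interval -0.11 to 0.29; edgeR adjusted p = 0.506). Ezh2, the main catalytic subunit of dividing cells, lies on chromosome 6 (47530139 to 47595341) and had 159 and 158 CPM in the libraries labelled KO and 151 and 149 CPM in the Control libraries. Its log2 fold change was 0.08 (95% interval -0.11 to 0.26; edgeR adjusted p = 0.509). The Eed and Ezh2 intervals run from ratios of 0.924 and 0.929 to ratios of 1.22 and 1.201, so falls and rises within these bounds remain possible. Ezh1, the second catalytic subunit, which methylates less efficiently, also lies on chromosome 11 (101191115 to 101226463, minus strand). It had 52.8 and 57.3 CPM in the libraries labelled KO, below 67.8 and 62.2 CPM in the Control libraries, but the log2 fold change of -0.24 did not pass (95% interval -0.47 to -0.01; edgeR adjusted p = 0.139).

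Both subunits of PRC2.2 rose. Jarid2 encodes a DNA- and nucleosome-binding member of the Jumonji family that lacks demethylase activity. The gene lies on chromosome 13 (44729474 to 44921643). It had 821 and 843 CPM in the libraries labelled KO against 610.1 and 643 CPM in the Control libraries, and the libraries of each group lay close together. The log2 fold change was 0.41 ± 0.08 (SE; 95% interval 0.21 to 0.61; edgeR adjusted p = 0.027), or 1.33 times the Control level. The call was lost without Control replicate 1 (edgeR adjusted p = 0.384) and without Control replicate 2 (0.231), with log2 fold changes of 0.37 and 0.45.

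Aebp2, a zinc finger protein that binds nucleosomes in PRC2.2, lies on chromosome 6 (140622663 to 140678472). It had 420.1 CPM in KO replicate 1 and 301 CPM in KO replicate 2, against 236 and 235 CPM in the Control libraries. Both KO values were above both Controls, and the first stood further away than the second. The log2 fold change was 0.62 ± 0.15 (SE; 95% interval 0.24 to 0.99; edgeR adjusted p = 0.047), close to the threshold. It was 0.36 without KO replicate 1 and 0.83 without KO replicate 2. The call of Aebp2 was lost under 5 of 18 alternatives, with adjusted p between 0.052 and 0.072, among them the omission of either Control library. A processed pseudogene, Gm14240, shares 534 bases with Aebp2 at 94.4% identity, so some Aebp2 reads may map to both. The counts are per gene, and the isoforms of Aebp2 and Jarid2 are not told apart.

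Of the Polycomb-like genes of PRC2.1, whose products bind CpG-rich DNA and methylated lysine 36 of histone H3, Phf19 fell. Phf19 lies on chromosome 2 (34893757 to 34914026). It had 20.01 and 22.9 CPM in the libraries labelled KO against 39.4 and 38.1 CPM in the Control libraries, and the groups were well apart. The log2 fold change was -0.85 ± 0.11 (SE; 95% interval -1.13 to -0.58; edgeR adjusted p = 0.012), or 0.554 times the Control level, and the call held under all 18 alternatives. The chromosome 2 genes had a median of 0.05, and 49 of the 1241 tested there had a lower fold change than Phf19.

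Mtf2 was the most abundant of the Polycomb-like genes. It lies on chromosome 5 (108065674 to 108109004) and had 578 and 455 CPM in the libraries labelled KO, both below 668 and 649 CPM in the Control libraries. The log2 fold change was -0.35 ± 0.12 (SE; 95% interval -0.65 to -0.05; edgeR adjusted p = 0.104), or -0.53 without KO replicate 1 and -0.19 without KO replicate 2. Mtf2 was called under 4 of 18 alternative settings. Among them was the fit that kept genes of low count (-0.37, edgeR adjusted p = 0.03). Its exons share 395 bases with those of Tmed5, a gene of vesicle transport on the opposite strand, which had 24.3 and 20.4 CPM in the libraries labelled KO and 49.9 and 49.6 CPM in the Control libraries (log2 fold change -1.15, edgeR adjusted p = 0.0076). The sources used here do not give the strand setting of the counting, so reads of Mtf2 and Tmed5 in the shared bases cannot be told apart. A processed pseudogene, Gm49301, shares 329 bases with Mtf2 at 91.8% identity, so some Mtf2 reads may map to both. Phf1 was the least abundant subunit in CPM, at 13.8 and 17.4 CPM in the libraries labelled KO and 12.5 and 12.01 CPM in the Control libraries. Its log2 fold change was 0.35 (95% interval -0.02 to 0.71; edgeR adjusted p = 0.170). Of its 3486 exonic bases on chromosome 17 (26933052 to 26937908), 1370 overlap Cuta on the opposite strand, which had a log2 fold change of 0.29 (edgeR adjusted p = 0.127).

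Epop, which links PRC2 to elongin and is typical of ES cells, is a short gene on chromosome 11 (97627389 to 97629702, minus strand). It had 252 and 344 CPM in the libraries labelled KO and 358 and 454 CPM in the Control libraries. The spread within each group was wide, and the higher KO value lay just below the lower Control value. The log2 fold change was -0.44 ± 0.18 (SE; 95% interval -0.87 to -0.02; edgeR adjusted p = 0.133), and it was not called. It was -0.24 without KO replicate 1 and -0.69 without KO replicate 2, and -0.61 and -0.26 without Control replicates 1 and 2. Epop was called under 6 of 18 alternative settings, among them the omission of either KO library or of Control replicate 1. Epop has the highest transcript GC content of the 10, at 66.9%. In the quintile of genes with the highest GC content the median log2 fold change was 0.23. With an offset for GC content Epop stood at -0.88 and was called (edgeR adjusted p = 0.0074), where 5.28% of all genes were higher and 8.71% lower. That offset leaves in the lower level of chromosome 11. Epop was not called with an offset per chromosome (0.01, edgeR adjusted p = 0.968), nor with both offsets together.

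**Figure D2:**
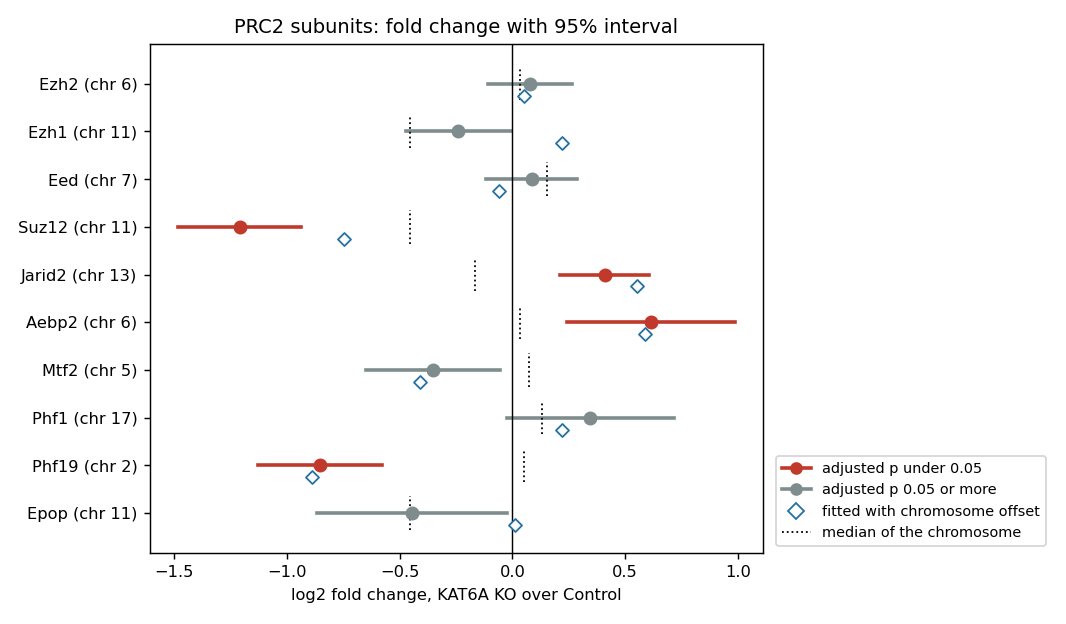
Log2 fold change, KAT6A KO over Control, of each PRC2 subunit gene with its 95% interval (circles and bars, red where the edgeR adjusted p is under 0.05). Diamonds give the value fitted with an offset per chromosome and dotted ticks the median of the gene's chromosome. Suz12 and Phf19 lie below and Aebp2 and Jarid2 above 0, and Epop moves to 0.01 with the chromosome offset.

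The 3 subunit genes on chromosome 11, Suz12, Ezh1 and Epop, were set against the other genes there, since that chromosome was lower as a whole in the libraries labelled KO. Its 1322 tested genes had a median log2 fold change of -0.46, and 40.5% of them were called lower and 0.681% higher. Suz12 lay well below this median. Only 58 of the 1322 had a lower fold change, and among the 345 with at least 100 CPM in the Controls Suz12 was the third lowest. Its direct neighbours Utp6 and Crlf3 had log2 fold changes of -0.79 and -0.52 (edgeR adjusted p = 0.0074 and 0.020). The 10 tested genes on either side had a median of -0.55 and a range of -1.32 to 0.12, and 1 of these 20 stood lower than Suz12. With an offset per library and chromosome, which makes each fold change relative to the chromosome's median, Suz12 remained called at -0.74 ± 0.13 (SE; edgeR adjusted p = 0.029), or 0.597 times the Control level. Over all genes this fit called 3.44% higher and 4.31% lower. With an added GC-content offset, chosen after seeing the data, the Suz12 value was -0.53 (edgeR adjusted p = 0.023).

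Epop and Ezh1 lay within the bulk of chromosome 11. Epop was close to its median: 688 of the 1322 genes were lower and 633 higher, and its value relative to the chromosome was 0.01 (edgeR adjusted p = 0.968). The 20 genes around it had a median of -0.37, and its direct neighbours 2410003L11Rik and Gm11613 had values of -0.19 and 0.13. For Ezh1, 987 genes were lower, and the value relative to the chromosome was 0.22 (edgeR adjusted p = 0.164), with the sign turned. The 20 genes around Ezh1 had a median of -0.37, and its neighbours Cntnap1 and Ramp2 stood at 0.19 and -0.28. Among the subunits elsewhere, the same fit gave 0.55 for Jarid2 (edgeR adjusted p = 0.022), whose chromosome 13 had a median of -0.17, and -0.89 for Phf19 (edgeR adjusted p = 0.019). Aebp2 kept its size at 0.59 but missed the threshold (edgeR adjusted p = 0.068), and Eed turned to -0.06 (edgeR adjusted p = 0.688).

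**Figure D3:**
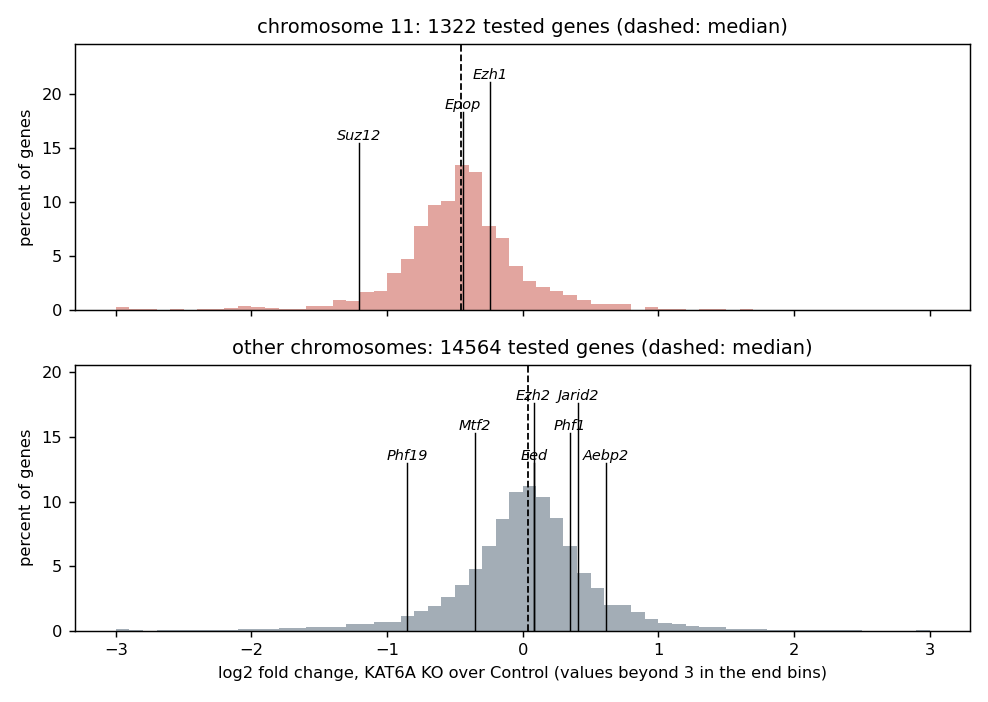
Percent of tested genes (vertical axis) by log2 fold change, KAT6A KO over Control, on chromosome 11 (upper panel) and on the other chromosomes (lower panel), with the subunit genes marked and the median dashed. Suz12, at -1.21, lies in the lower tail of chromosome 11, whose median is -0.46, while Epop lies at the median.

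Fold changes in these libraries also followed transcript GC content, with a median of -0.22 in the quintile of lowest GC content and 0.23 in the quintile of highest. Suz12 (41.6% GC), Aebp2 (40.9%) and Mtf2 (38.2%) fall in the lowest quintile. With the GC-content offset, Suz12 had a log2 fold change of -0.9955, Phf19 -0.95, Aebp2 0.85 and Jarid2 0.43, all called (edgeR adjusted p between 0.0043 and 0.017). Mtf2 was -0.02 with this offset (edgeR adjusted p = 0.854). The offset moved Ezh2 to 0.22 (edgeR adjusted p = 0.094) and Phf1 to 0.14 (0.473).

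Levels of different subunits were compared per transcript length, as TPM (counts per exon length, scaled to the same sum in each library) with exon lengths from GENCODE M21. Epop and Suz12 were the most abundant in the Control libraries. Epop had 480.1 ± 99.3 TPM in the libraries labelled KO and 653 ± 105 TPM in the Control libraries (SD, n = 2 each), and Suz12 had 279.7 ± 43.2 TPM against 646 ± 2.15 TPM. In the Control libraries these levels were followed by Mtf2 (431 TPM), Eed (331), Jarid2 (240.5), Aebp2 (89.1), Ezh2 (83.8), Ezh1 (32.6), Phf19 (28.7) and Phf1 (13.1). There, Epop and Suz12 could not be ordered beyond their spread, and the values of each later gene lay below those of the one before it in both libraries. In the libraries labelled KO the order was Epop, Eed (352 TPM), Mtf2 (339), Jarid2 (319), Suz12, Aebp2 (137), Ezh2 (88.5), Ezh1 (27.6), Phf1 (16.7) and Phf19 (15.9). Suz12 had rank 2 in the Control libraries and rank 5 in those labelled KO. The KO libraries of Mtf2 overlapped in level with those of Eed, Jarid2 and Suz12, and those of Phf1 with Phf19. Lengths are of all annotated exons of a gene together, so genes with many isoforms, such as Aebp2, may have been set too low.

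Ratios within a library do not depend on how libraries are scaled, and they are given without a test. Suz12 per Eed was 0.846 and 0.741 in the libraries labelled KO against 1.90 and 2.01 in the Control libraries. Suz12 per Ezh2 was 3.46 and 2.85 in the libraries labelled KO against 7.58 and 7.84 in the Control libraries. Eed per Ezh2 was 4.09 and 3.85 in the libraries labelled KO against 3.998 and 3.91 in the Control libraries, and here the groups overlapped. The Ezh1 share of Ezh1 plus Ezh2 was 23.0% and 24.6% in the libraries labelled KO and 28.6% and 27.3% in the Control libraries. Suz12 and Ezh1 lie on chromosome 11, so their ratios to genes elsewhere include the lower level of that chromosome (median log2 fold change -0.46). With the chromosome offset the log2 fold changes were 0.22 for Ezh1 and 0.05 for Ezh2.

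Some ratios between accessory transcripts also lay apart between the groups, and others overlapped. Jarid2 plus Aebp2 per Mtf2, Phf1 and Phf19 together was 1.16 and 1.31 in the libraries labelled KO against 0.675 and 0.720 in the Control libraries, with no overlap. Within the Polycomb-like genes, Mtf2 made up 92.7% and 89.3% of their summed TPM in the libraries labelled KO and 91.1% and 91.2% in the Control libraries, and the groups overlapped. Jarid2 per Aebp2 also overlapped, at 1.98 and 2.84 in the libraries labelled KO against 2.62 and 2.78 in the Control libraries. Phf1 per Phf19 was 0.997 and 1.099 in the libraries labelled KO against 0.461 and 0.456 in the Control libraries. Jarid2 per Suz12 was 1.03 and 1.29 in the libraries labelled KO against 0.365 and 0.379 in the Control libraries. The TPM of all 10 genes summed to 2093 and 2017 in the libraries labelled KO and 2489 and 2609 in the Control libraries. This sum and Jarid2 per Suz12 include genes of chromosome 11. Suz12 and Epop there had means of 279.7 and 480.1 TPM in the libraries labelled KO, against 646 and 653 in the Control libraries. Of all 10 subunits, 5 had log2 fold changes above 0 and 5 below, so the lower sum is not a fall of every subunit.

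**Figure D4:**
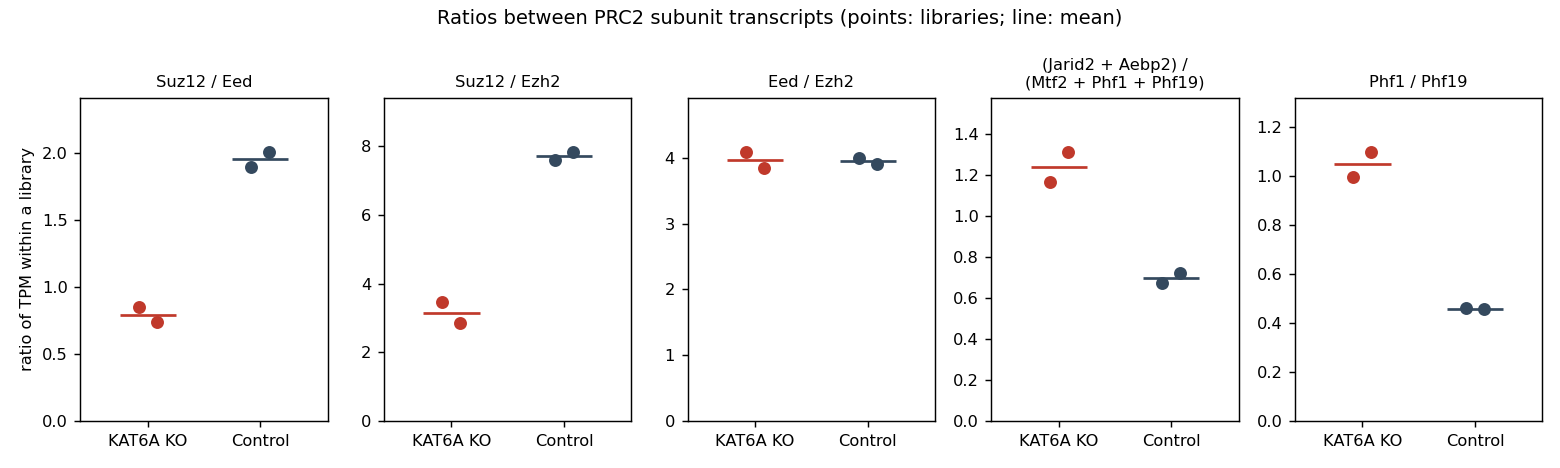
Ratios of TPM between PRC2 subunit genes within each library (vertical axes, each from 0), with libraries labelled KAT6A KO in red and Control in dark blue, and the group mean as a line. Suz12 per Eed and Suz12 per Ezh2 are lower in the libraries labelled KO, Eed per Ezh2 overlaps between the groups, and the summed PRC2.2 transcripts are higher relative to the Polycomb-like ones.

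The authors' deposited table of their own comparison gave the same 4 subunits an adjusted p under 0.05. In the authors' deposited table the log2 fold changes were -1.14 for Suz12 (DESeq2 adjusted p = 8.2e-17), -0.79 for Phf19 (5e-06), 0.58 for Aebp2 (0.0013) and 0.40 for Jarid2 (0.0053). Over the 14690 genes with an adjusted p in the authors' deposited table, 6.94% were higher and 10.1% lower. Epop and Mtf2 narrowly missed in the authors' deposited table (DESeq2 adjusted p = 0.053 and 0.066).

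Around the 10 subunits, 7 lists of related genes were read from the same fit. Their counts of calls stand beside 5.76% of all genes tested higher and 8.57% lower. Of the further PRC2 partners, Lcor, the gene of PALI1, a protein that joins PRC2.1, fell to 36.6 and 37.0 CPM in the libraries labelled KO against 53.8 and 53.7 CPM in the Control libraries (log2 fold change -0.55, edgeR adjusted p = 0.017). It was the only one of 5 tested to pass, and the median of the 5 was -0.50. Lcor was not called with the GC-content offset alone, nor when either Control library was left out (edgeR adjusted p = 0.064, 0.144 and 0.147), and it was called with the offset for chromosome and GC content together (-0.41, edgeR adjusted p = 0.048). The histone-binding partners Rbbp4 and Rbbp7, which belong to several chromatin complexes, had log2 fold changes of 0.22 and -0.17 (edgeR adjusted p = 0.108 and 0.217). Under the GC-content offset Rbbp4 was called, at 0.34 (edgeR adjusted p = 0.024). None of the 3 genes for demethylases of lysine 27 passed, and Kdm6a, the most abundant, had 166 and 126 CPM in the libraries labelled KO and 141 and 140.2 CPM in the Control libraries (log2 fold change 0.06, edgeR adjusted p = 0.801). Kdm6a was called at 0.43 with the chromosome and GC-content offsets together (edgeR adjusted p = 0.027), and it stood at -0.16 without KO replicate 1 and 0.24 without KO replicate 2.

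PRC1, the complex that ubiquitinates histone H2A, binds the methylated lysine 27 mark in its canonical form. Of 14 canonical PRC1 genes, 2 rose and 3 fell, beside 5.76% and 8.57% of all genes tested, with a median of -0.21. Cbx7, the main reader of the mark in ES cells, rose by 0.42, and Phc2, a polyhomeotic subunit, also by 0.42 (edgeR adjusted p = 0.041 and 0.044). Scml2 fell by 2.41 to 24.6 and 9.02 CPM in the libraries labelled KO, against 89.8 and 90.3 CPM in the Control libraries (edgeR adjusted p = 0.017). Rnf2, the catalytic ubiquitin ligase, fell by 0.50 (edgeR adjusted p = 0.035). With the GC-content offset Cbx7, Phc2 and Rnf2 were no longer called (edgeR adjusted p = 0.059, 0.310 and 0.093). Cbx7 and Phc2 also missed the threshold with the chromosome offset (edgeR adjusted p = 0.075 and 0.080), and without either Control library none of these 4 was (0.074 to 0.440). Scml2 was not called either when genes of low count were kept in (edgeR adjusted p = 0.223).

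Over all genes tested, 5.76% rose and 8.57% fell, the background for each list in this paragraph. Of 13 variant PRC1 genes, 2 fell and none rose at an adjusted p under 0.05, with a median of -0.12. They were Pcgf5, a RING finger subunit (19.8 and 19.8 CPM in the libraries labelled KO against 39.3 and 36.9 CPM in the Control libraries; edgeR adjusted p = 0.0088), and Yaf2, a binding partner of the ring ligases (log2 fold change -0.83, edgeR adjusted p = 0.021). The call of Yaf2 was lost without either Control library (edgeR adjusted p = 0.078 and 0.061). Among the 8 genes of the complex that removes ubiquitin from H2A, Mbd6 and Asxl1 rose by 0.44 and 0.34 and Foxk2 on chromosome 11 fell by 0.42 (edgeR adjusted p = 0.022, 0.041 and 0.023), with a median of 0.24. All 3 were lost without either Control library (edgeR adjusted p between 0.225 and 0.496). Mbd6 was also lost after correction for GC content (edgeR adjusted p = 0.365). The chromosome offset ended the calls of Asxl1, at 0.30 (edgeR adjusted p = 0.067), and of Foxk2, at 0.04 (edgeR adjusted p = 0.757). None of the 5 lysine 36 methyltransferase genes passed, and Nsd1, the most abundant, had a log2 fold change of 0.00 (edgeR adjusted p = 0.997).

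Developmental regulators known as PRC2 targets in ES cells, where the mark keeps them silent, were read last. Of 36 listed genes 25 had enough reads to be tested, and of these 4 fell and none rose, with a median log2 fold change of -0.74. The background over all genes tested was 8.57% falls, and a low gene could pass the read filter through its Control libraries alone, so this count gives no support on its own. Hand1, a trophoblast and heart factor on chromosome 11, had 0.854 and 1.2 CPM in the libraries labelled KO against 8.44 and 9.75 CPM in the Control libraries (edgeR adjusted p = 0.0050). Gata4 and Gata6, endoderm factors named after their values were seen, fell by 1.81 and 1.94 (edgeR adjusted p = 0.028 and 0.013). Gata4 was not called when genes of low count were kept in (edgeR adjusted p = 0.279).

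Markers of cell types other than ES cells were summed beside these targets. Their counts of calls stand against 5.76% of all genes higher and 8.57% lower, and a gene low in the libraries labelled KO could again pass the read filter through its Control libraries alone. The 6 primitive endoderm markers, which include Gata4, Gata6 and Sox17, summed to 49.97 and 111 CPM in the libraries labelled KO and 233 and 236 CPM in the Control libraries, and 4 of the 6 fell. The 5 trophoblast markers, Hand1 among them, summed to 3.12 and 3.603 CPM in the libraries labelled KO and 14.6 and 16.1 CPM in the Control libraries; 4 were tested and 3 fell. The 4 neural markers summed to 112 and 96.0 CPM in the libraries labelled KO and 61.4 and 69.3 CPM in the Control libraries, and 3 rose. Most of that sum was Tubb3, at 91.1 and 79.1 CPM against 50.2 and 58.0 CPM, and Pax6 was not called (-0.05, edgeR adjusted p = 0.887). The 7 fibroblast markers summed to 22.6 and 19.9 CPM in the libraries labelled KO and 15.5 and 16.5 CPM in the Control libraries, with 3 tested, none called and Lum at 0 in every library. Thy1 made up most of it, at 17.9 and 16.4 CPM against 12.3 and 12.7 CPM. The 8 ES cell markers summed to 5936 and 6164 CPM in the libraries labelled KO and 4654 and 4605 CPM in the Control libraries, and 3 rose. The part of any of these cell types in the values of the PRC2 subunits or their targets was not tested.

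**Figure D5:**
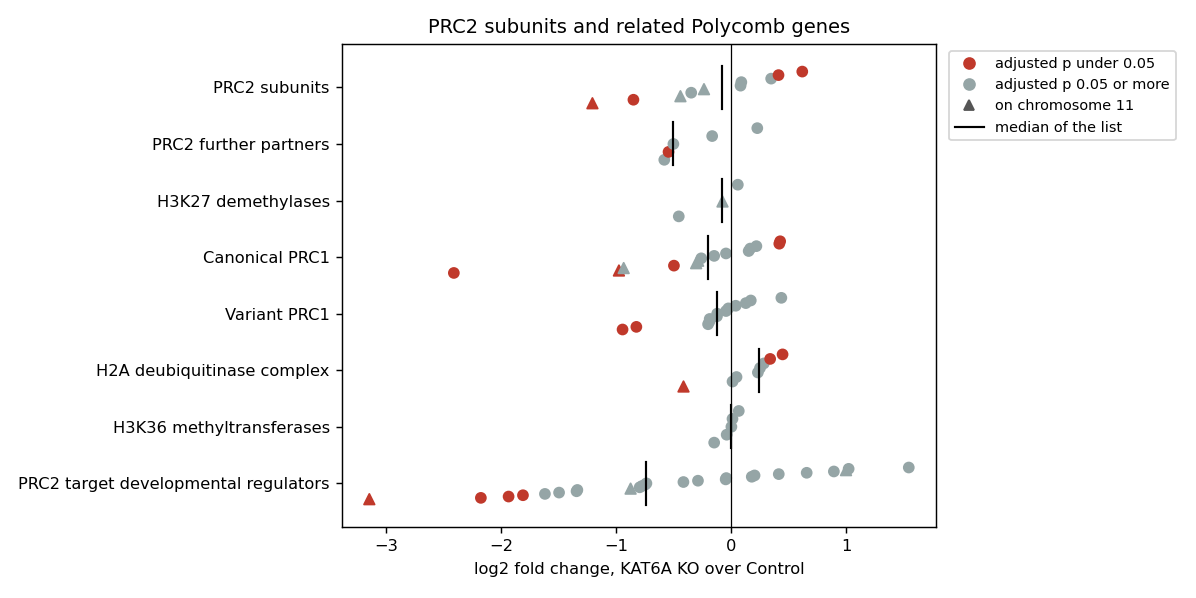
Log2 fold change, KAT6A KO over Control, of the 10 PRC2 subunit genes (top row) and of the tested genes in 7 related lists, with called genes in red, genes on chromosome 11 as triangles and the list median as a line. The subunits spread from -1.21 to 0.62 around a median of -0.08.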

How the data were processed

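RNA was read from 4 libraries made with the TruSeq Stranded mRNA kit, per the labels' protocols. The deposited read counts per gene symbol were made by the authors with featureCounts, per the submitters' processing notes. The sources used here name no aligner, genome build, annotation or counting strand. A deposited table of normalized counts, unit signal, holds the authors' counts divided by 1 factor per library (0.945 and 0.848 for KO, 1.11 and 1.15 for Control). The authors' deposited comparison, made with DESeq2 per the submitters' processing notes, has no header. The authors' mean signal, log2 fold change, standard error and Wald statistic (scores), p-value and adjusted p-value were told apart there by their values and order. Every per-sample column was used.

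Counts were fitted in edgeR 4.0.16 (R 4.3.3). Genes were filtered with filterByExpr by group, scaled by TMM (factors 0.992 to 1.01) and compared with the robust quasi-likelihood test on group alone; p-values were adjusted by Benjamini-Hochberg over all 16112 tested genes, which hold 99.9% of counts. CPM use the scaled library sizes. Lengths, positions and GC content (known for 98.6% of tested genes) were taken from the GENCODE M21 annotation of GRCm38, which holds 97.3% of the symbols. BLAST 2.17.0 searched transcripts for copies (at least 90% identity over 200 bases). Offsets took each library's chromosome median, or a lowess of span 0.3 on GC content. Other alternatives used limma 3.58.1 and DESeq2 1.42.0. Tables and plots were made with matplotlib 3.10.9, scipy 1.17.1 and pandas 2.3.3 in Python 3.11.15.

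The mean chi-square per gene was 34.4 between the KO libraries and 3.70 between the Controls, so each library was counted separately. Subunits and lists were chosen with earlier results of these data known. Beside the subunits, the text names Kat6a, exon overlaps, neighbours of the chromosome 11 subunits, and per list up to 2 called genes in each direction by smallest adjusted p, or the most abundant where none was called. Some single genes that this rule takes are not reported here. Precision is limited by 2 libraries per group.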

Additional observations from a re-analysis of the deposited data

How the results depend on the processing

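Of 18 other settings, 1 of them chosen after seeing the data (chromosome and GC-content offset together), Suz12 and Phf19 were called lower in all 18, Jarid2 higher in 16 and Aebp2 in 13. Subunits called higher numbered 1 with a minimum of 1 CPM in 2 libraries, 1 without the other chromosome 11 genes and 1 with the chromosome offset. Over all genes, the likelihood ratio test called 1666 higher and 2175 lower, the fit without the other chromosome 11 genes 519 and 697, the chromosome offset 554 and 694, and both offsets together 504 and 658. Leaving out 1 library gave 0 to 3 subunits higher and 2 to 5 lower, and 254 to 4020 genes higher and 648 to 4400 lower; the group's remaining library then borrows its spread from the other group.

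The labels number the replicates but do not say whether same-numbered libraries were handled together. The correlation of same-numbered deviations over all genes tested was 0.0945, which cannot decide this. With the replicate block, 4 subunits were called lower, Epop and Mtf2 being added (edgeR adjusted p = 0.0035 and 0.021), and 1613 genes were called higher and 2147 lower; Scml2 and Gata4 were no longer called (0.208 and 0.169).

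Some signs turned, that of Foxk2, a called fall, among them. With the chromosome offset the log2 fold changes were 0.22 for Ezh1, -0.061 for Eed, 0.013 for Epop, 0.041 for Foxk2, 0.14 for Nsd1, 0.18 for Ramp2, 0.27 for 2410003L11Rik and 0.036 for Rbbp7. With both offsets they were 0.19 for Ezh1, -0.019 for Eed, 0.22 for Nsd1, 0.0204 for Ramp2, 0.30 for 2410003L11Rik and 0.17 for Rbbp7. Nsd1 was 0.0061 with RLE factors, 0.032 with the upper quartile, 0.013 with totals only, 0.0032 with the 1 CPM minimum, 0.0060 with DESeq2, 0.073 with the GC-content offset and 0.071 with the replicate block and that offset. With 1 library left out, Kat6a ran from -0.74 to 0.75, Kdm6a from -0.16 to 0.24, Nsd1 from -0.056 to 0.049, Cntnap1 from -0.011 to 0.41 and Gm11613 from -0.47 to 0.54. The cause was not tested. With 2 libraries per group, small changes of Ezh2, Eed, Ezh1 and Phf1 could not be seen.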
